A study of Mus musculus with 40 samples.

Results

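The 6 miRNAs described here, mmu-miR-764-5p, mmu-miR-764-3p, mmu-miR-448-3p, mmu-miR-1264-3p, mmu-miR-1298-5p and mmu-miR-1912-3p, lie within the mouse gene Htr2c. They were taken by name from 1978 mature miRNAs counted in the small RNA of the hippocampal CA1 region, and each was counted on the precursor chosen by the highest total count, although each had only 1 precursor. They are the more abundant arm of 4 hairpins and both arms of miR-764, so their rank in total count and their dominance over the opposite arm are given as descriptions. The opposite arms miR-448-5p, miR-1264-5p, miR-1298-3p and miR-1912-5p were also counted and are given beside them.

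The libraries came from 40 mice on a C57Bl/6J background, 1 library per mouse, and both sexes were used. The groups were 5 wild-type control mice and 9 CamKIIδC TG mice aged 3 months, and 15 wild-type control mice and 11 CamKIIδC TG mice aged 6 months. TG mice overexpress the kinase isoform that gives the line its name, which is activated by calcium and calmodulin, and serve as a model of heart failure, their controls were littermates, and neither the promoter of the transgene nor the sex of a mouse is given in the sources used here. Labels conflict for mice 1 and 2 of the younger wild-type control group, which are wild-type by title and TG by genotype field, and the title was followed. The paper gives other numbers of TG mice per age than the titles, and the groups here follow the titles.

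Htr2c encodes a serotonin receptor that is coupled to G proteins, abundant in the epithelium of the choroid plexus and also made by neurons, including those of the hippocampus. An intronic miRNA is cut from the transcript of its host gene as a hairpin, the hairpin is then cleaved into a duplex, and usually a single arm of the duplex is loaded into an Argonaute protein while the other is degraded. The loaded arm finds its mRNA targets mainly through its seed, a short stretch near its 5′ end.

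The mature sequences are shown because their seeds define which transcripts each could pair with. They come from RefSeq on GRCm38.p6, where all 6 members and 8 of the 10 arms were matched by name. They are written 5′ to 3′ with the seed (bases 2 to 8) in capitals.
mmu-miR-764-5p: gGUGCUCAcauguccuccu
mmu-miR-764-3p: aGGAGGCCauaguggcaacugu
mmu-miR-1912-3p: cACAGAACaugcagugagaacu
mmu-miR-1264-3p: cAAAUCUUauuugagcaccugu
mmu-miR-1298-5p: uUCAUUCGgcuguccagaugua
mmu-miR-448-3p: uUGCAUAUguaggaugucccau

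No seed was shared among the matched arms of the locus. These 8 arms had 8 distinct seeds and so form no seed family. The seeds of miR-1912-5p and miR-1264-5p, which were not matched, were not compared. Among the 1679 mature sequences in the reference, the only other miRNA with a seed of a member was miR-7062-5p, which shares that of miR-764-3p. It had 15 counts over all libraries and at most 0.148 CPM, counts scaled to a common library total, in any of them.

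Htr2c (ENSMUSG00000041380) occupies chrX:146962513-147197277 on the plus strand of GRCm38, and its transcript Htr2c-201 has 6 exons. All members lie on the same strand as the gene and inside introns. From 5′ to 3′, intron 2 holds miR-764-5p (chrX:147002285-147002303), miR-764-3p (chrX:147002324-147002345), miR-1912-3p (chrX:147009493-147009514), miR-1264-3p (chrX:147010655-147010676) and miR-1298-5p (chrX:147064918-147064939). This intron comes before the start codon. miR-448-3p (chrX:147158281-147158302) lies in intron 4, after the start codon. The first 5 therefore span 62655 bases of 1 intron, with miR-1912-3p and miR-1264-3p 1140 bases apart and miR-1264-3p and miR-1298-5p 54241 bases apart, and a further 93341 bases separate miR-1298-5p from miR-448-3p.

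miR-764 is the only hairpin with both of its arms among the members, and it is shown with the arms in capitals. The 5p arm comes first, and 20 bases of loop separate it from the 3p arm.
Mir764: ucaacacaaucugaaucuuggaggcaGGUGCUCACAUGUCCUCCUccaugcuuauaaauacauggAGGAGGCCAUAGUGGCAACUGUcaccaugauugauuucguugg

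Depth has to be stated first, because it moves with several values below. Counts on miRNAs ranged from 1926108 to 22892729 per library, and 3 counts, the limit that a count of 0 allows, corresponded to between 0.0956 and 2.32 CPM, a limit that accounts for counting error alone. The 6 deepest libraries, with 18431486 to 22892729 miRNA counts, stood above the other 34, which had at most 16817018. Of these 6, 5 came from 3-month-old TG mice (mice 4, 5, 6, 7 and 9) and 1 from 3-month-old wild-type control mouse 2, which is TG by genotype field. These 6 libraries also had the most mature miRNAs detected, 1182 to 1225 against at most 1138 elsewhere. The labels give no sequencing run or batch, so age, genotype and run cannot be told apart.

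The miRNAs of Htr2c differed widely in level, with miR-1298-5p far above the others. As median CPM over the 40 libraries, scaled with TMM factors and without length correction because mature miRNAs are read from end to end, miR-1298-5p reached 353, miR-1264-3p 17.7, miR-448-3p 8.06, miR-764-5p 2.22, miR-764-3p 0.576 and miR-1912-3p 0.455. By total count miR-1298-5p (137135 counts) ranked 133 of the 1978 miRNAs and miR-1912-3p (293 counts) ranked 672. miR-1298-5p alone held a median of 78.0% of the counts on the 10 arms of the locus, between 56.4% and 85.7% in single mice.

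The order of the levels was stable at the top and not at the bottom. miR-1298-5p exceeded miR-1264-3p in 40 of 40 libraries, miR-1264-3p exceeded miR-448-3p in 36, miR-448-3p exceeded miR-764-5p in 40, and miR-764-5p exceeded miR-764-3p in 35. miR-764-3p exceeded miR-1912-3p in only 22 of 40 and equalled it in 4, so this last pair was not separated beyond its spread. Order between miRNAs also reflects how well each sequence is ligated and amplified, which was not tested.

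mmu-miR-1298-5p, the most abundant miRNA of the locus, was measured at 385, 105, 276, 200.1 and 346 CPM in 3-month-old wild-type control mice 1 to 5. In 3-month-old TG mice it ranged from 90.4 to 460 CPM with a median of 121, in 6-month-old wild-type control mice from 205 to 619 with a median of 343, and in 6-month-old TG mice from 209 to 766 with a median of 425. The 3-month-old TG mice fell into 2 sets rather than around their median. Mice 4, 5, 6, 7 and 9 had 90.4 to 121 CPM, whereas mice 1, 2, 3 and 8 had 362 to 460, within the range of the 6-month-old mice. The lower set was that of the deepest libraries, and across the series the 6 deepest libraries had 90.4 to 121 CPM of miR-1298-5p while the other 34 had 200.1 to 766, without overlap. There the raw counts of miR-1298-5p were 2543 to 2882. Over 40 libraries the log2 CPM of miR-1298-5p had r = -0.71 with the log2 of the miRNA total, and the part of depth in its level was not tested.

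mmu-miR-1264-3p was measured at 20.7, 20.7, 12.9, 17.8 and 33.0 CPM in 3-month-old wild-type control mice 1 to 5. It ranged from 5.51 to 21.7 CPM with a median of 13.8 in 3-month-old TG mice, from 5.07 to 35.9 with a median of 22.0 in wild-type control mice aged 6 months, and from 9.09 to 32.2 with a median of 17.1 in 6-month-old TG mice. All 4 groups overlapped. Unlike miR-1298-5p, it was not low in the deepest libraries, where it had 12.7 to 21.7 CPM, and the lowest 3-month-old TG values belonged to mice 3, 2 and 1, with 5.51, 6.67 and 10.5 CPM.

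mmu-miR-448-3p, the only member in the distal intron, varied least between groups. The 3-month-old wild-type control mice 1 to 5 had 8.77, 9.06, 11.9, 11.8 and 6.67 CPM. The 3-month-old TG mice had 6.74 to 8.93 CPM with a median of 7.76, the 6-month-old wild-type control mice 4.51 to 14.1 with a median of 6.62, and the 6-month-old TG mice 5.96 to 14.0 with a median of 7.91. The group ranges lay within each other.

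mmu-miR-764-5p was found in 39 of the 40 libraries, at 1.92, 1.61, 2.44, 2.54 and 3.79 CPM in 3-month-old wild-type control mice 1 to 5. Its medians were 1.27 CPM in 3-month-old TG mice (0.763 to 3.20), 2.03 in 6-month-old wild-type control mice (0 to 3.23) and 2.57 in 6-month-old TG mice (1.63 to 2.91). The library at 0, that of 6-month-old wild-type control mouse 5, had 2080504 miRNA counts, and a count of 0 there allows up to 2.32 CPM, above the median of its group.

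miR-764-3p and miR-1912-3p lay close to the limit of detection. miR-764-3p had 0.600, 1.54, 0.834, 0.371 and 0.631 CPM in 3-month-old wild-type control mice 1 to 5, and medians of 1.06 CPM in 3-month-old TG mice (0.355 to 1.98), 0.384 in 6-month-old wild-type control mice (0 to 2.52) and 0.338 in 6-month-old TG mice (0 to 1.29). It was at or under 3 counts in 6 of the 15 and 6 of the 11 mice aged 6 months. miR-1912-3p was at 0 in 7 of the 40 libraries and reached at most 1.44 CPM, with group medians between 0.325 and 0.759 CPM.

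**Figure D1:**
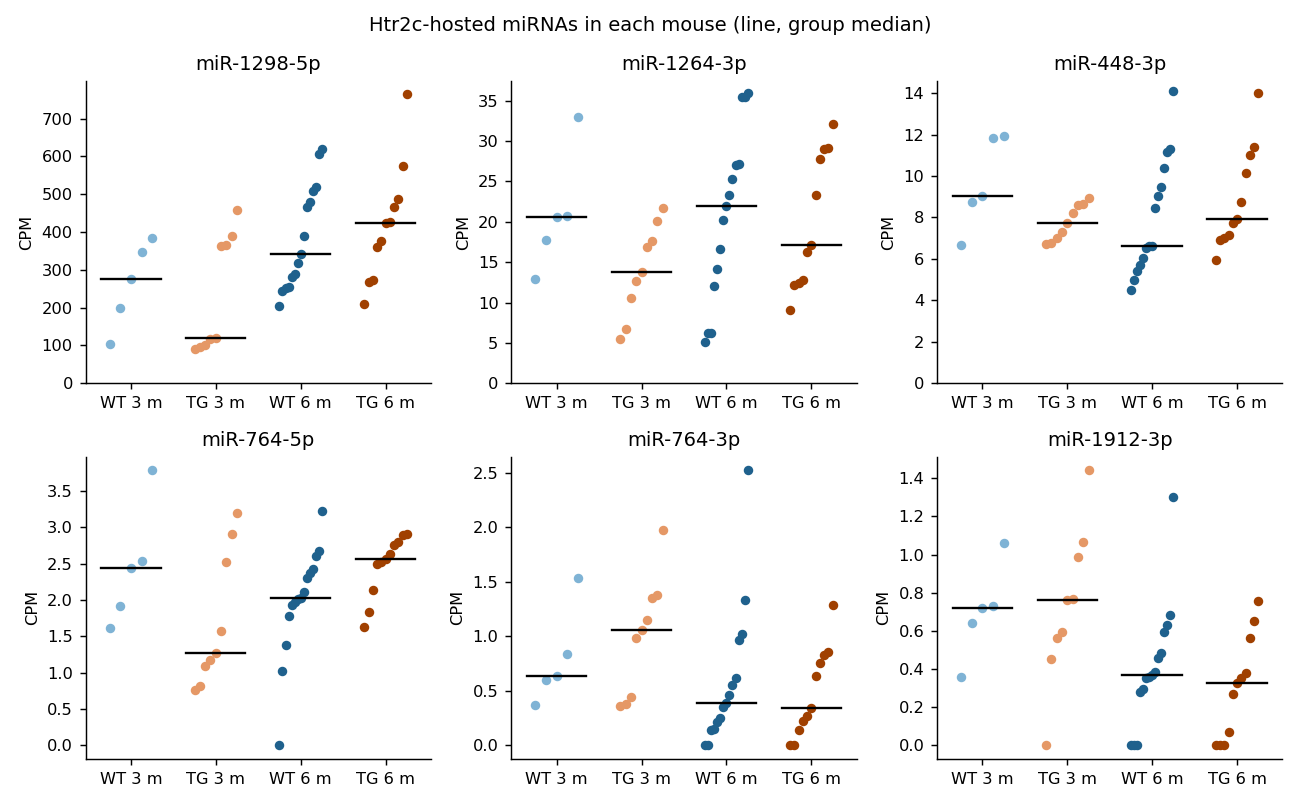
Level of each miRNA of Htr2c (CPM, linear axes that differ between panels) in every mouse of the 4 groups, ordered by value within a group, with points for mice and lines for group medians. The 3-month-old TG mice form a low and a high set for miR-1298-5p (90.4 to 121 and 362 to 460 CPM), and the groups overlap in every panel.

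TG mice of both ages were compared first, older against younger. With edgeR's quasi-likelihood test over all miRNAs (adjusted p below 0.05 and absolute log2FC above 0.26), 15.7% of the 629 miRNAs tested were altered (7.47% higher and 8.27% lower at 6 months). Of the 6 members, 5 passed the filter on low counts (miR-1912-3p did not), and 0 of these 5 were called altered. DESeq2 called 1, miR-1298-5p (log2FC 0.85, adjusted p = 0.0424), of the 22.9% of all 629 that it called, and gave no adjusted p for miR-764-3p. Before adjustment 3 of the 5 had a p below 0.05, where 32.4% of all tested miRNAs did.

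The fitted values themselves were of moderate size and pointed both ways. miR-1298-5p had a log2FC of 0.87 (SE 0.33, adjusted p = 0.0743), miR-764-5p 0.62 (SE 0.26, adjusted p = 0.0990) and miR-1264-3p 0.55 (SE 0.27, adjusted p = 0.165) by edgeR. miR-764-3p, the opposite arm of the same hairpin as miR-764-5p, had -0.88 (SE 0.40, adjusted p = 0.135), and miR-448-3p 0.19 (SE 0.17, adjusted p = 0.428). The median of the 5 was 0.55, beside -0.09 over all miRNAs tested. Among the opposite arms, miR-1264-5p had 0.59 (adjusted p = 0.0769 by edgeR), miR-1298-3p 0.48 (adjusted p = 0.202) and miR-448-5p -0.19 (adjusted p = 0.679), and miR-1912-5p was not tested.

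These calls depended on how the differences between libraries were treated. With 1 factor of unwanted variation estimated from residuals (RUVr), edgeR called 4 of the 5 members, miR-1298-5p at 1.05, miR-764-5p at 0.72, miR-1264-3p at 0.59 and miR-764-3p at -0.80, while the calls over all miRNAs went from 99 to 297 (47.2%). Without the 6 deepest libraries, a setting chosen after seeing the data which leaves 4 of the 9 TG mice aged 3 months, edgeR gave miR-1298-5p a log2FC of 0.12 (adjusted p = 0.764) and miR-764-5p 0.09 (adjusted p = 0.838), and called miR-1264-3p at 1.17 (adjusted p = 0.0301), where 94 of 623 miRNAs (15.1%) were called, 28 higher and 66 lower. Of these 3 miRNAs, only miR-1264-3p had a log2FC above 0.5 in both. The 4 younger TG mice that remained had 5.51 to 13.8 CPM of it, beside 12.7 to 21.7 in the 6 deepest libraries. Its value thus also depended on which libraries were kept.

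In wild-type control mice the same ages were compared to see what changes without the transgene. By edgeR 1 of 660 miRNAs (0.152%) was called altered. Of the members, 4 were tested (not miR-764-3p and miR-1912-3p), with 0 called by edgeR, 0 by DESeq2 and 0 with an unadjusted p below 0.05. miR-1298-5p had a log2FC of 0.55 (SE 0.28, adjusted p = 0.365), miR-764-5p -0.24 (SE 0.27, adjusted p = 0.687), miR-448-3p -0.28 (SE 0.23, adjusted p = 0.573) and miR-1264-3p 0.00 (SE 0.36, adjusted p = 0.994) by edgeR. With 1 RUVr factor, miR-1298-5p was called at 0.54 (adjusted p = 0.0284), beside 171 called miRNAs in all (25.9%).

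The genotypes were then compared within each age. At 3 months edgeR called 0 of 695 miRNAs (0%), 7 of which had an unadjusted p below 0.05, and none of these was a member. All 6 members were tested and DESeq2 called 0. The sizes were -0.64 for miR-764-5p (SE 0.34), -0.60 for miR-1264-3p (SE 0.34), -0.36 for miR-448-3p (SE 0.20), -0.24 for miR-1298-5p (SE 0.43), -0.03 for miR-1912-3p (SE 0.44) and 0.34 for miR-764-3p (SE 0.43), each with an adjusted p of 0.998 by edgeR. Thus 5 of 6 lay below 0, with a median of -0.30 beside 0.04 over all miRNAs. Of these 5, miR-1912-3p had no stable sign, as it was reversed in 5 of 9 alternative settings. Without the 6 deepest libraries, edgeR called miR-1264-3p lower in TG mice (log2FC -1.27, SE 0.35, adjusted p = 0.0265), among 128 called miRNAs of 608 (21.1%), and miR-1298-5p moved from -0.24 to 0.31 (adjusted p = 0.336).

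At 6 months edgeR called 0 of 612 miRNAs (0%) and 3 had an unadjusted p below 0.05, none of them a member. Of the members, 4 were tested and DESeq2 called 0. Their log2FC were 0.24 for miR-764-5p (SE 0.18), 0.11 for miR-1298-5p (SE 0.21), 0.11 for miR-448-3p (SE 0.18) and -0.06 for miR-1264-3p (SE 0.27). The 95% intervals of miR-1298-5p (-0.31 to 0.54) and miR-448-3p (-0.26 to 0.49) leave room for moderate differences in either direction.

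The interaction of age and genotype tests whether the change with age differed between TG and wild-type control mice. By edgeR and by DESeq2 0 of 699 miRNAs (0%) and 0 of the 6 members were called. miR-764-5p was the only member with an unadjusted p below 0.05 (log2 difference 0.84, SE 0.37, p = 0.0273, adjusted p = 0.986 by edgeR), and its p was the 7th smallest of the 699, of which 14 were below 0.05. Hence a difference between the genotypes in the change with age was not shown for any miRNA of Htr2c. The comparisons within and between genotypes share the same groups of mice, so their values are not independent of each other.

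**Figure D2:**
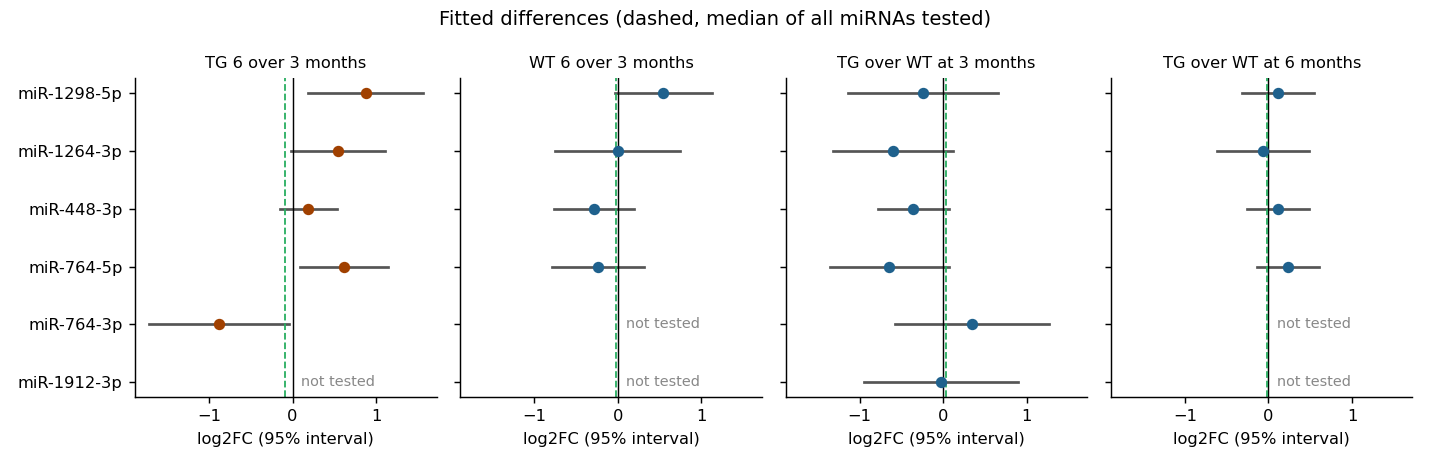
Fitted log2FC of each member (points) with its 95% interval (lines) in the 4 comparisons, and the median log2FC of all miRNAs tested (dashed line). In TG mice miR-1298-5p has the highest value (0.87) and miR-764-3p the lowest (-0.88), and members that did not pass the low-count filter are marked as not tested.

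The balance between the arms of miR-764 differed between the ages in TG mice. Both arms come from 1 hairpin and are counted in the same library, but their counts were low, and at low counts a ratio that uses a pseudocount also depends on depth. Summed over the 40 libraries, miR-764-5p held 69.7% of the hairpin's counts (1028 against 447 counts). By group it held 72.1% in 3-month-old wild-type control mice, 53.9% in 3-month-old TG mice, 76.3% in wild-type control mice aged 6 months and 79.8% in 6-month-old TG mice. The 3p arm had more counts than the 5p arm in 4 mice, all of them 3-month-old TG mice (mice 4, 5, 7 and 9, with 18 against 25, 20 against 33, 40 against 50 and 36 against 39 counts). In the other groups the 5p arm was at least equal in every mouse.

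As log2 of the ratio of 5p to 3p counts, each plus 1, 6-month-old TG mice had 2.23 ± 1.00 (SD, n = 11) and 3-month-old TG mice 0.68 ± 1.27 (SD, n = 9). The difference of 1.55 had a two-sided exact permutation p = 0.00769, and p = 0.0308 after Benjamini-Hochberg adjustment over the 4 comparisons. In wild-type control mice the 6-month-old group had 1.74 ± 1.15 (SD, n = 15) and the 3-month-old group 1.62 ± 1.01 (SD, n = 5), a difference of 0.13 (exact permutation p = 0.832). TG and wild-type control mice differed by -0.94 at 3 months (exact permutation p = 0.170, adjusted p = 0.340) and by 0.49 at 6 months (permutation p = 0.268, adjusted p = 0.358). Whether the change in TG mice differed from that in wild-type control mice was not tested.

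The change in arm balance rested on the deepest libraries. The 6 deepest libraries had log2 ratios of -0.70 to 0.25, and 2 of the other 34 were as low as that. One of these, 6-month-old wild-type control mouse 5, had no count on either arm, so its ratio of 0 came from the pseudocount alone. Without this mouse the difference in wild-type control mice was 0.25 (exact permutation, adjusted p = 0.658) and that between genotypes at 6 months 0.36 (permutation, adjusted p = 0.527). Without the 6 deepest libraries the difference between ages in TG mice was 0.36 (exact permutation p = 0.545, adjusted p = 0.727), over 11 and 4 mice. With the ratio adjusted for the number of miRNAs detected, using the slope within groups, the difference was 1.26 (exact permutation p = 0.0104, adjusted p = 0.0416). Since 5 of the 6 deepest libraries are of 3-month-old TG mice by title, depth and group cannot be told apart here. The adjusted p also rose above 0.05, to at most 0.0663 by exact permutation, in 8 of the 20 tests that left out 1 mouse (mouse 4, 5, 6, 7 or 9 of the younger and 2, 3 or 4 of the older TG mice).

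**Figure D3:**
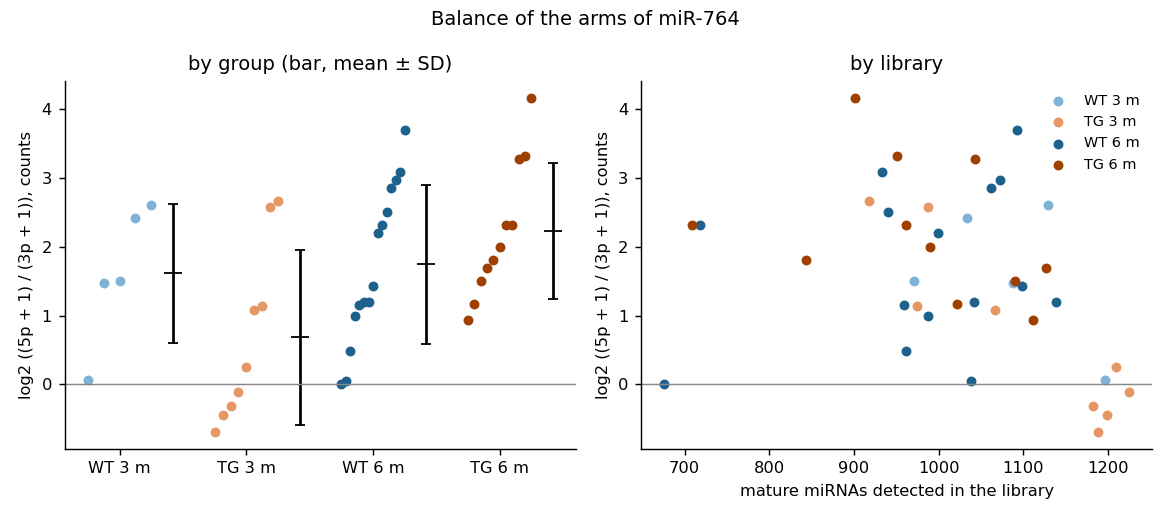
Balance of the arms of miR-764, as log2 of the ratio of 5p to 3p counts (each plus 1), by group with mean ± SD (left) and against the number of mature miRNAs detected in the library (right). The 6 libraries with 1182 to 1225 miRNAs detected sit between -0.70 and 0.25, and 5 of them belong to 3-month-old TG mice.

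The other 4 hairpins each kept 1 dominant arm. The 5p arm held 84.4% of the counts of miR-1298 and was the larger in 40 of 40 libraries. The 3p arm was the larger in 40 of 40 libraries for miR-1264, where 5p held 23.5%, and for miR-448, where 5p held 14.9%. For miR-1912, 5p held 4.25%, or 13 counts against 293. The 5p share of miR-1298, from counts summed by group, was lowest in 3-month-old TG mice at 79.5%, against 82.6% in 3-month-old wild-type control mice, 87.2% in wild-type control mice aged 6 months and 85.6% in 6-month-old TG mice. These shares moved with depth. The 6 deepest libraries had log2 ratios of 5p to 3p of 1.35 to 1.76, and the other 34 had at least 2.01. Among the latter, 3-month-old TG mice 1, 2, 3 and 8 had 2.23, 2.29, 2.31 and 2.69. The part of depth in the shares was not tested.

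Whether miRNAs of 1 host gene varied together from mouse to mouse was examined with the deviations of log2 CPM from the group means in the 40 mice. Of 27 pairs (15 among members and 12 of a member with miR-204-5p or miR-211-5p), 5 passed an adjusted p of 0.05 by permutation for both Pearson's r and Spearman's rho, 4 of them pairs of members. These 4 did not share a sign. miR-764-3p and miR-1264-3p had r = 0.63 (rho 0.58, adjusted permutation p = 0.00072 for r and 0.00306 for rho), and miR-1298-5p and miR-448-3p had r = 0.41 (rho 0.40, adjusted permutation p = 0.0106 and 0.0215). miR-1298-5p had r = -0.57 with miR-1264-3p (rho -0.58, adjusted permutation p = 0.00072 and 0.00256) and r = -0.51 with miR-764-3p (rho -0.53, adjusted permutation p = 0.00243 and 0.00317).

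The negative relation of miR-1298-5p and miR-1264-3p was present within each group of more than 5 mice, with r = -0.76 in 3-month-old TG mice, -0.60 in wild-type control mice aged 6 months and -0.82 in 6-month-old TG mice. It was -0.54 without the 2 mice farthest from the median of miR-1264-3p and -0.55 without the 6 deepest libraries. For the pair of miR-1298-5p and miR-448-3p, which lie in different introns, r was 0.49, 0.58 and 0.76 in the same 3 groups and 0.53 without the deepest libraries. The relation of miR-764-3p with miR-1298-5p was weaker in 6-month-old wild-type control mice (r = -0.20) than in the other groups (-0.78 and -0.89), and this difference was not tested.

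The members were also set against the main axis of variation between libraries. The first principal component of the other 690 miRNAs, taken over the same deviations, held 52.5% of their variance. Its score had r = 0.91 with the number of miRNAs detected and r = 0.75 with the log2 of the miRNA total. The deviations of miR-1264-3p had r = 0.88 with it, those of miR-764-3p 0.71, miR-1912-3p 0.48, miR-764-5p 0.19, miR-448-3p -0.33 and miR-1298-5p -0.83. Neuronal miRNAs lay on both sides of 0. miR-124-3p had r = 0.96 and miR-138-5p 0.88, but miR-128-3p had -0.80, miR-9-5p -0.42 and miR-132-3p -0.27. The opposite arms of 1 hairpin could differ in this respect, as miR-448-5p had 0.66 where miR-448-3p had -0.33, whereas both arms of miR-1298 were negative (miR-1298-3p, -0.93). What the component stands for was not tested.

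After the component was removed, an analysis added after seeing the data, the sign between the intron 2 neighbours turned. miR-1264-3p and miR-1298-5p then had r = 0.59 (rho 0.59, adjusted permutation p = 0.00189 for r and 0.00378 for rho). Of the 15 pairs of members 3 passed for both measures, all positive and all with miR-1298-5p, the others being miR-1912-3p (r = 0.43) and miR-764-5p (r = 0.44). Without the 6 deepest libraries these last pairs had r = 0.33 and 0.16, and in 6-month-old TG mice 0.77 and -0.03. The pairs miR-764-3p with miR-1264-3p (r = 0.04) and miR-448-3p with miR-1298-5p (r = 0.26) no longer passed. The positive relation of miR-1264-3p and miR-1298-5p was not seen in every group. It had r = 0.89 in 3-month-old TG mice and 0.51 in 6-month-old wild-type control mice, but -0.05 in 6-month-old TG mice, and 0.44 over the 34 mice without the deepest libraries.

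**Figure D4:**
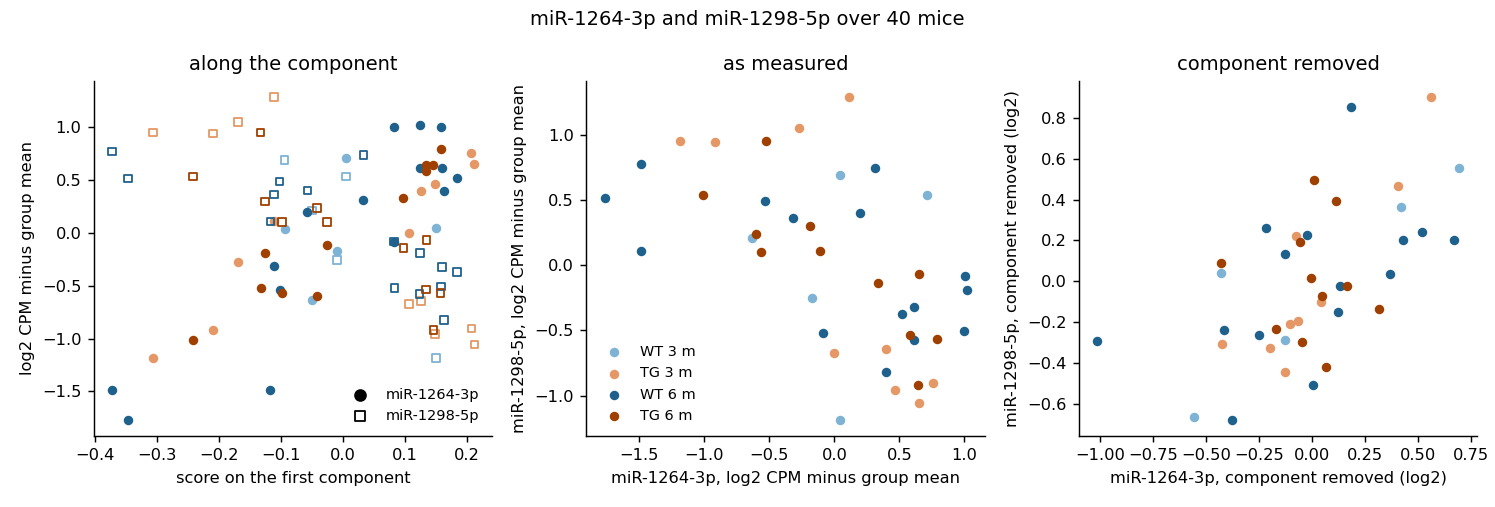
miR-1264-3p and miR-1298-5p in 40 mice, as log2 CPM minus the group mean. The left panel plots both against the score on the first component of the other miRNAs (r = 0.88 and -0.83), the middle panel plots them against each other as measured (r = -0.57), and the right panel after the component was removed from both (r = 0.59).

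miR-204-5p and miR-211-5p are abundant in the choroid plexus, where Htr2c is also strongly expressed, and were chosen to stand for such tissue in these pairs. As measured, 1 of the 12 pairs with a member passed for both measures, miR-1298-5p with miR-211-5p (r = 0.65, rho 0.62, adjusted permutation p = 0.00072 and 0.00256). It was 0.84 in 3-month-old TG mice, 0.29 in wild-type control mice aged 6 months and 0.40 in 6-month-old TG mice, and 0.39 without the 6 deepest libraries. Other miRNAs listed below for choroid plexus and ciliated epithelium, outside the 12 pairs, did not all share this sign. With miR-1298-5p, miR-204-3p had r = 0.60, but miR-449a-5p had -0.50, miR-34c-3p -0.34, miR-34b-5p -0.27, miR-34b-3p -0.11 and miR-34c-5p -0.07. With the component removed 4 of the 12 passed. They were miR-1298-5p with miR-204-5p (r = 0.72) and miR-211-5p (r = 0.72), and miR-1264-3p with miR-204-5p (r = 0.55) and miR-211-5p (r = 0.64). In 6-month-old wild-type control mice these 4 were between 0.47 and 0.80, and in 6-month-old TG mice between -0.29 and -0.06.

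The 10 miRNAs listed for choroid plexus and ciliated epithelium included 2 that were not detected in every group. miR-211-3p was at 0 in every wild-type control mouse and miR-449c-5p in every wild-type control mouse aged 3 months, and none of the 10 was at 0 in all libraries. Their summed level was 534 to 1146 CPM in 3-month-old wild-type control mice, 482 to 875 in 3-month-old TG mice, 696 to 2617 in wild-type control mice aged 6 months and 802 to 1218 in 6-month-old TG mice. miR-204-5p had medians of 590.0, 417, 796 and 772 CPM in the same order. The highest sum belonged to 6-month-old wild-type control mouse 8, which also had the highest miR-448-3p of its group (14.1 CPM). Over the 40 mice miR-448-3p had r = 0.24 with miR-204-5p and 0.23 with miR-211-5p (adjusted permutation p = 0.288 and 0.257). Without this mouse these were 0.05 and 0.10. Between the ages of TG mice, 2 of the 8 tested miRNAs of this list were called higher and 0 lower by edgeR. The shares over all 629 miRNAs tested were 7.47% and 8.27%. The 2 called were miR-204-5p and miR-211-5p. Of the 8, 5 had a log2FC above 0 and 3 below, among them miR-449a-5p at -0.86 (adjusted p = 0.136 by edgeR). The part of choroid plexus in the levels of the miRNAs of Htr2c was not tested, and in bulk tissue more cells of a type and more RNA per cell cannot be told apart.

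Markers of other cells were as follows in the same comparison. Among 5 neuronal miRNAs edgeR called 1 higher and 0 lower, among 3 of oligodendrocytes 0 higher and 2 lower, among 4 of blood 1 higher and 1 lower, among 4 of vessels 1 higher and 0 lower, and among the 2 tested of 4 posterior (Hox) miRNAs none. Over all 629 miRNAs tested, 7.47% were called higher and 8.27% lower. In the other comparisons none of these lists had a called member. There edgeR called 1 miRNA of 660 between the ages of wild-type control mice and 0 of 695 and 0 of 612 between genotypes. For the interaction it called 0 of 699. The neuronal miR-128-3p and miR-9-5p had the highest totals of all 1978 miRNAs.

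The 5 miRNAs whose deviations were most like those of miR-1298-5p over the 40 mice were miR-679-5p (Spearman's rho 0.899), miR-381-3p (0.895), miR-708-3p (0.894), miR-704 (0.886) and miR-148a-3p (0.885), of 698 compared. None of them lies in Htr2c. All 5 followed the first component closely, with r between -0.98 and -0.94. miR-1298-3p, from the same hairpin as miR-1298-5p, ranked 30.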

How the data were processed

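Small RNA reads were trimmed and mapped to miRBase by the authors with mirdeep2 (genome mm10), and the deposited values used here are raw counts per pair of mature miRNA and precursor. The normalized table was not used. Of 2128 pairs, 1978 mature miRNAs were kept, each by its precursor with the highest total, and 52 spike-in entries were left out. No column was left unassigned to a sample.

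In R 4.3.3, edgeR 4.0.16 was run separately on the groups of each comparison, with filterByExpr (minimum count 10, minimum total 15), TMM factors, robust quasi-likelihood tests and Benjamini-Hochberg adjustment over all miRNAs tested. Calls required an absolute log2FC above 0.26 and an adjusted p below 0.05. Correlations used log2 CPM with a prior count of 2 and 100000 permutations within groups. Arm ratios used a pseudocount of 1. Permutation tests were run in scipy 1.17.1, two-sided.

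DESeq2 1.42.0, RUVr factors and the other alternatives are given at the end. RUVr factors were computed from their definition. Both tests were tested on simulated data. p-values measure the spread between the mice sequenced, and no library was a copy of another.

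The text names the members, their opposite arms, marker lists, miRNAs that share a seed and the 5 most similar to miR-1298-5p. Members, lists and tests were chosen with earlier results of these data known. The mRNA of Htr2c was not analysed here.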

Additional observations from a re-analysis of the deposited data

How the results depend on the processing

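The count of members called changed with the treatment of library differences. In TG mice it went from 0 to 1 with DESeq2 (miR-1298-5p), 1 in a joint fit of the 4 groups (miR-1298-5p, log2FC 0.85, beside 135 of 699 miRNAs), 4 with 1 RUVr factor in edgeR and 4 with 2 RUVr factors in DESeq2 (miR-764-5p, miR-764-3p, miR-1264-3p and miR-1298-5p), and 1 without the 6 deepest libraries (miR-1264-3p). It was 0 to 2 when 1 mouse was left out. miR-1298-5p was called without 3-month-old TG mouse 1, 3 or 8 (log2FC 1.00, 0.98 and 1.07) and miR-764-5p without mouse 3 or 8 (0.76 and 0.75). In wild-type control mice the count was 1 with either RUVr setting (miR-1298-5p). At 3 months it was 2 with DESeq2 and 2 RUVr factors (miR-1264-3p at -0.63 and miR-1298-5p at -0.35) and 1 without the deepest libraries (miR-1264-3p). It stayed at 0 under the other settings run (except the block), for TG against wild-type at 6 months and for the interaction under every setting run. The cause was not tested.

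Over all miRNAs tested, edgeR with 1 RUVr factor called 297 between ages of TG and 171 of control mice, beside 99 and 1 without the factor, DESeq2 alone 144 and 25, and DESeq2 with 2 factors 321 and 212. At 3 months DESeq2 with 2 factors called 54 and edgeR without the deepest libraries 128, beside 0. At 6 months 1 factor gave 3 calls and 2 factors 8, and for the interaction 2 factors gave 3, none of them a member.

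The replicate numbers in the titles recur in each group, and the main tests did not treat them as pairs. Same-numbered mice had a mean correlation of 0.226 between ages in TG mice (7 of 9 pairs over 0.1), 0.0351 in wild-type control mice (2 of 5), 0.0068 at 3 months (2 of 5) and 0.259 at 6 months (9 of 11). Over all pairs of groups, the own number was the best match in 7 of 44 same-numbered pairs. No value for mice of different numbers is given for reference. With the replicate number as a block, 1 member was called in TG mice (miR-1298-5p at 1.09) and 2 in wild-type control mice (miR-1264-3p at -1.24 and miR-1298-5p at 1.03), with 124 and 250 miRNAs called in all. The block changed no other call of a member.

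Values near 0 changed sign. In wild-type control mice miR-1264-3p (-0.00 as reported) had 0.0088 in the joint fit, 0.14 without the 3 shallowest libraries and -0.15 to 0.22 over the fits without 1 mouse. miR-1912-3p at 3 months had 0.0126 with DESeq2 size factors, 0.0127 without a filter, 0.0065 with DESeq2, 0.0188 with DESeq2 and 2 RUVr factors, 0.0154 in the joint fit and -0.18 to 0.20 without 1 mouse. Its interaction was 0.0655 with the block. At 6 months the block gave miR-1264-3p 0.33 and miR-1298-5p -0.0074, and the fits without 1 mouse gave -0.15 to 0.0137 and -0.0205 to 0.19. Without the deepest libraries miR-1298-5p had 0.31 at 3 months and -0.26 in the interaction.

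The change in miR-764 arm balance was 1.35 to 1.80 without 1 mouse (adjusted p 0.00847 to 0.0663) and 0.36 without the deepest libraries. In wild-type control mice it was -0.26 to 0.37 without 1 mouse, -0.43 without 3-month-old mice 1 and 2, -0.11 adjusted for miRNAs detected and -0.26 without the deepest libraries. The difference between genotypes kept its direction at 3 months (-1.32 to -0.69 without 1 mouse) and at 6 months (0.29 to 0.63). At 3 months it was only -0.14 without the deepest libraries. Counts of miR-764-3p and miR-1912-3p, at most 50 and 25 per library, limit what could be seen of them. Settings on deep libraries, shallow libraries, the component and miRNAs detected were chosen after seeing the data.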
